A study of Homo sapiens with 9 samples.

Results

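Gene expression was compared between LiSa-2 cells given hyaluronidase for 6 h and LiSa-2 cells given phosphate-buffered saline (PBS) and collected at 24 h. The comparison took the 3 arrays labelled as 6 h of hyaluronidase and the 3 labelled as PBS, which are 6 of the 9 arrays of the study. The other 3 arrays are of cells given hyaluronidase for 24 h, and their values are quoted beside a gene where they show its later level. LiSa-2 is an established human liposarcoma line, a tumour of the fat cell lineage, and was grown in DMEM/F12 with bovine serum. The enzyme was a bovine testicular preparation at 400 µg/mL, and each sample was 1 array of total RNA. The title of the series names remodelling of the extracellular matrix, glucose metabolism and TXNIP.

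Because PBS was taken at 24 h, treatment and time of harvest differ together in this comparison, and their parts cannot be told apart. No sample with inactivated enzyme, with other protein or with PBS at 6 h was analysed here. Nothing in the labels tells whether replicate samples came from separate cultures. The p-values therefore measure only how far these samples lie apart, which may be technical spread. The line is a single cell population in culture, but fewer cells of a state and less RNA per cell cannot be told apart in bulk RNA.

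Hyaluronan is a long sugar chain of the matrix around cells, made by the HAS enzymes at the cell membrane and bound by CD44 and other receptors. Testicular hyaluronidase cuts it, and chondroitin chains to a lesser degree, into fragments. Growth factor and cytokine signals reach the nucleus through ERK and NF-kappaB, which switch on a first wave of genes that need no new protein: transcription factors, cytokines and inhibitors of the same signals. Fat cell identity rests on transcription factors such as PPARG and CEBPA, which drive genes of lipid storage.

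Values are array signals on the scale of the deposited table, in which each array had been brought to a common mean. Fold changes are on the log2(signal + 16) scale, are given as 6 h hyaluronidase minus PBS, and carry the standard error (SE) of a limma model fitted to all 9 arrays. A gene was called higher or lower at a limma adjusted p under 0.05 over all genes tested. A level is at or below the controls where it lies within the range of the Bacillus subtilis control probes of the same array. Where all 3 arrays of the dimmer group did so, the fold is given as "at least" and was taken relative to the controls. Where only some arrays of the dimmer group lay above the controls, the size of the change is uncertain. Of the genes named, this was so in PBS for NR4A2, CXCL2, CXCL3, IL24, PTGER2, ITGA2, FHL2, CCND1, SEMA7A and HMGA2, and at 6 h for TLR3, BMF, DBP, HOXC13 and SLC40A1. A gene is given by its brightest probe set. With the mean of all its probe sets the fold was over 1.5 times smaller, but the call stayed, for EREG, INHBA, GDF15, HBEGF, IL1RN, IL11, MAFF, CXCL2, CD274, SPRED2, OSM, IL1RAP, CEMIP, CHST15, ITGB3, PFKFB4, MT1E, TRIB1 and HMGA2 among rises and for CDKN1C, SLC40A1, SEMA6D, DBP, PPARGC1A, PDK4, FGFR2, KLF15, TSC22D3 and AXIN2 among falls.

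Hyaluronidase for 6 h and PBS at 24 h differed in a large part of the transcriptome. Of 13842 genes tested, 5863 were called (42.4%), 2073 higher (15%) and 3790 lower (27.4%). Most calls were small: the median size was 1.45-fold for genes called higher and 1.41-fold for genes called lower. The balance turned with size. At 2-fold or more, 468 genes were higher (3.38%) and 446 lower (3.22%), at 4-fold or more 128 and 40 (0.925% and 0.289%), and at 8-fold or more 33 and 4 (0.238% and 0.0289%). For 54.2% of the genes tested no 6 h array lay within the range of the PBS arrays. Over all genes tested the log2 fold change had a median of -0.08.

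Arrays of a group correlated at 0.9892 to 0.9911 across genes, and arrays of 6 h with arrays of PBS at 0.9608 to 0.9633. As a sign of RNA quality, the signal of the 3′ over the 5′ control probe set of GAPDH differed by -0.033 on the log2 scale (two-sided exact permutation p = 0.3), and that of ACTB by -0.275 (p = 0.1, the smallest p that 3 against 3 arrays allow). Leukocyte, epithelial and endothelial markers were listed as a check of other cells. Of 18 leukocyte, 17 epithelial and 12 endothelial markers, 10, 8 and 3 were bright enough to be tested. Called higher and lower were 3 and 0 of the leukocyte, 0 and 2 of the epithelial and 1 and 1 of the endothelial markers. The leukocyte marker with the largest change was LAPTM5, a lysosomal protein of blood cells, with a log2 fold change of 0.91, and PTPRC (CD45) was too dim to be tested. The largest change of all was that of KRT14, a keratin, at -1.57 ± 0.36 (SE), which did not pass the test with log2(signal + 1) (limma adjusted p = 0.111). The part of such markers in other results was not tested. Of 14 mesenchymal markers tested, 6 rose and 4 fell, and VIM, the vimentin of mesenchymal cells, was at 26504, 27043 and 28802 in PBS and 28129, 28952 and 27561 at 6 h.

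**Figure D1:**
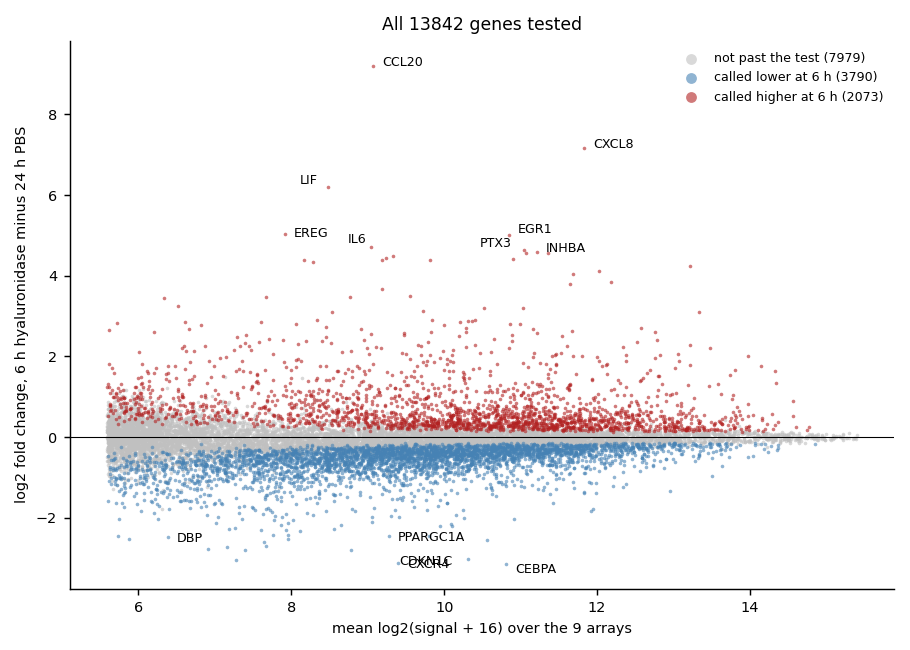
Log2 fold change (6 h hyaluronidase minus 24 h PBS) of each of the 13842 genes tested against its mean log2(signal + 16) over the 9 arrays, with the 2073 genes called higher in red, the 3790 called lower in blue and the rest in grey. The largest rises lie farther from 0 than the largest falls.

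The largest rises included secreted signals and first-wave response genes, and the largest falls included CEBPA, CXCR4 and CDKN1C. CCL20, a chemokine for lymphocytes and dendritic cells, led the rises. Its signal was 2.13, 3.38 and 7.12 in PBS, at or below the controls on all 3 arrays, and 11920.2, 12229.6 and 11541 at 6 h. That is a rise of at least 183-fold (limma adjusted p = 2.41e-09). CXCL8, which draws neutrophils, was at 113, 97.6 and 91.0 in PBS and 16119.7, 16947 and 16593 at 6 h, a log2 fold change of 7.16 ± 0.08 (SE). Both groups lay far apart for each gene. LIF, a cytokine of the IL-6 family, was at or below the controls in PBS at 25.7, 38.0 and 11.8 and at 2958, 2804 and 2913 at 6 h, at least 44.8-fold higher.

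CEBPA, a transcription factor that holds the fat cell state, led the falls, from 6722, 7424 and 7121 in PBS to 903, 752 and 726 at 6 h. CXCR4, the receptor of the chemokine CXCL12, was at 2192, 2254 and 2094 in PBS and 219, 226 and 269.5 at 6 h. CDKN1C, which encodes the cell cycle inhibitor p57, was at 4402, 4522 and 4410.5 in PBS and 538, 529 and 521 at 6 h. The log2 fold changes of these genes were -3.14 ± 0.09 (SE), -3.12 ± 0.09 (SE) and -3.03 ± 0.06 (SE). In each of them the arrays of a group lay close together and far from those of the other group. The adjusted p-values of the 25 largest rises and 25 largest falls were at most 0.00947 (limma), and the arrays did not overlap for any of them, which the choice of these genes required.

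**Figure D2:**
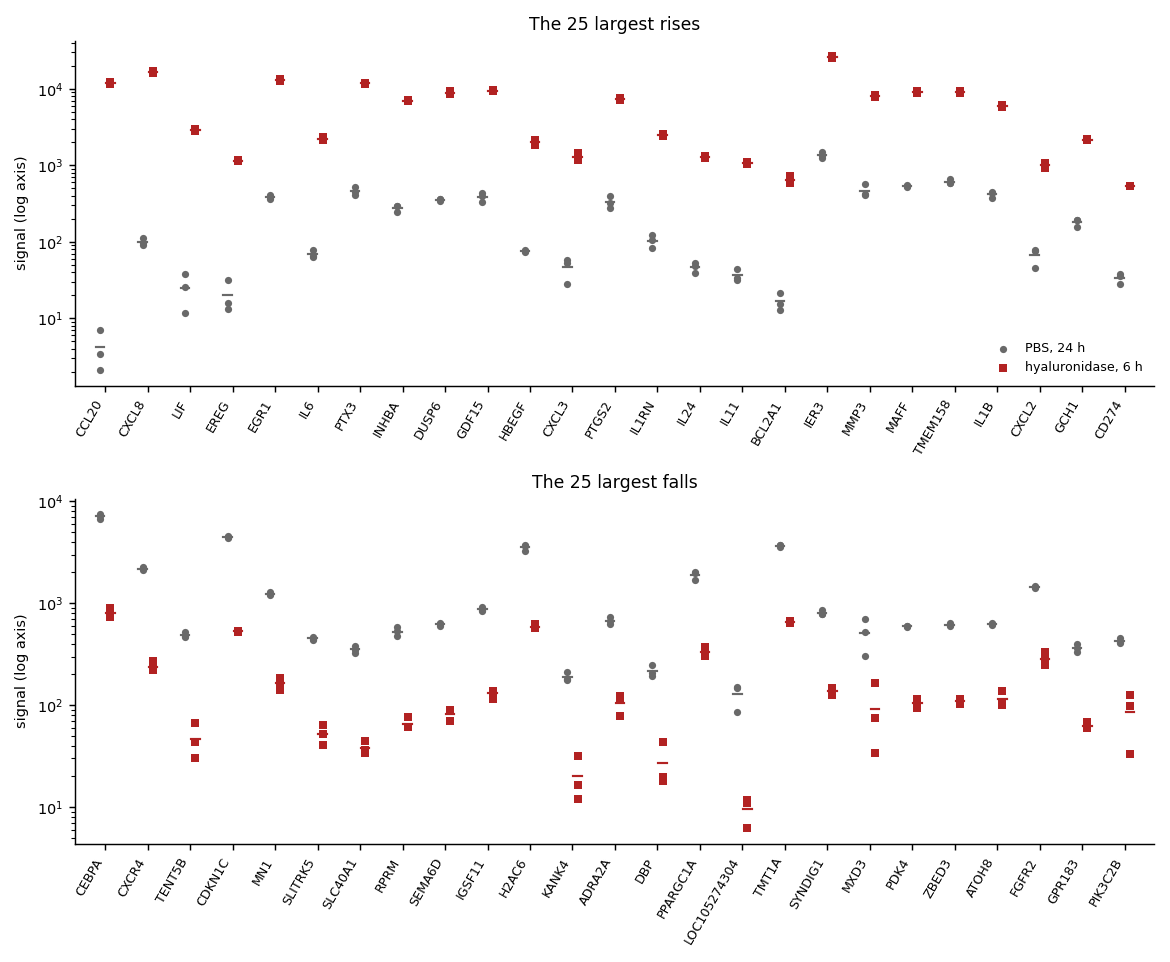
Signal on a log axis in the 3 PBS arrays (grey circles) and the 3 arrays of 6 h hyaluronidase (red squares) for the 25 largest rises and the 25 largest falls, with a bar at each group's mean. The spread within a group is small beside the distance between groups, and it is widest for signals near the control level, such as CCL20 in PBS and KANK4 at 6 h.

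First-wave transcription factors were mostly higher at 6 h. Of 28 tested members of this list, 20 rose and 2 fell, with a median log2 fold change of 1.26 against -0.08 for all genes. EGR1, a zinc finger factor induced by ERK, was at 367, 408 and 389.6 in PBS and 12985, 13457 and 12742 at 6 h. It was 32.4-fold higher, and its level at 24 h of hyaluronidase was 1164, 1199 and 1113, between the PBS and 6 h levels. FOS and EGR3 were at or below the controls in PBS, with 19.8, 5.10 and 6.61 for FOS and 21.9, 22.8 and 20.8 for EGR3. At 6 h they were at 235, 257 and 308 and 397, 303 and 343, at least 4.33-fold and at least 5.57-fold higher.

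The AP-1 partners did not move alike. FOSL1, a FOS family member that lasts longer than FOS, was 6.1-fold higher and JUNB was 5.08-fold higher. MAFF, a small MAF factor, was at 531, 560.0 and 517 in PBS and 9353, 8911 and 9089 at 6 h, a log2 fold change of 4.05 ± 0.05 (SE). The orphan nuclear receptor gene NR4A2 was 5.02-fold higher. ATF3, often counted with this wave, was called lower at -0.47 ± 0.09 (SE), but another probe set of the gene gave 0.60 and the mean of its probe sets -0.06, so that its direction is not settled.

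Inhibitors of ERK signalling rose with these factors: 18 of 23 tested members were higher and 2 lower, with a median of 1.62. DUSP6, a phosphatase that switches off ERK, was at 367, 338 and 364 in PBS and 8467, 9354 and 8753 at 6 h, 23.8-fold higher. DUSP5 was 7.31-fold higher, the receptor signalling inhibitors SPRY2 and SPRED2 5.93-fold and 5.37-fold, and ERRFI1, which blocks the EGF receptor, 4.67-fold. Both other probe sets of SPRED2 were dim and did not pass the test, and the mean of its probe sets gave 0.91. IER3, a survival gene induced by both ERK and NF-kappaB, was at 1496, 1329 and 1265 in PBS and 26594, 26238 and 25628 at 6 h and at 23917, 24568 and 23022 after 24 h. The 24 h and 6 h levels of IER3 did not differ past the test (log2 difference -0.13, limma adjusted p = 0.184).

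EGR1 is shown with its promoter because it led this list and because serum response factor, which acts with ERK, binds sequences known as CArG boxes. The letters are the 200 bases before the RefSeq start of the gene, chr5:138465279-138465478 on the plus strand of GRCh38.p14, with both matches to the CArG box in capitals.
EGR1: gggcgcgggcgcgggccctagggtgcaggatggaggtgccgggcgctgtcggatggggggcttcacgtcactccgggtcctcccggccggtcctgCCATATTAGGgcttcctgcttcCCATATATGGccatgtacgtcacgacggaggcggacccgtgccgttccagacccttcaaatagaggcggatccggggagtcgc
The first bases of the matches lie 105 and 83 bases before the start. A CArG box, searched by its consensus on both strands, was found in 2 of the 22 promoters of this list in the RefSeq table (9.09%), in 2.99% of those of genes 2-fold or more higher, in 2.51% of those 2-fold or more lower and in 1.11% of 11167 promoters of tested genes. These windows run from 250 bases before the start to 50 after it, and a match is a run of letters and not a bound site.

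NF-kappaB genes were higher as a group. Of 19 tested subunits and feedback inhibitors, 13 rose and 1 fell, with a median of 0.76. RELB, the subunit of the slower NF-kappaB pathway, was at 97.0, 67.6 and 70.8 in PBS and 671, 635 and 620.3 at 6 h, 7.03-fold higher. Inhibitors moved with the subunits: NFKBIZ was 5.19-fold, TNFAIP3 (A20) 2.8-fold and NFKBIA (I-kappaB alpha) 2.31-fold higher, beside NFKB1 at 2.01-fold. NFKBIA was at 2204, 2011 and 2172 in PBS and 4814, 4910.4 and 5064 at 6 h, so the arrays did not overlap.

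Cytokines and chemokines held some of the steepest rises, but not all members took part. Of 24 listed chemokines 12 were bright enough to be tested, and 5 rose and 1 fell. Of the 12, 3 lay at or below the controls in PBS, and the filter on the mean of all 9 arrays leans such counts toward rises. CXCL3, another neutrophil chemokine, was at 52.6, 28.5 and 58.5 in PBS and 1176, 1286 and 1449.8 at 6 h, but only 1 PBS array lay above its control level, so the size of its rise (4.43 ± 0.20 (SE)) is uncertain. CXCL2 was at 78.1, 75.2 and 46.2 in PBS and 1082, 1066 and 924 at 6 h, with 2 PBS arrays above their controls. CXCL12, the ligand of CXCR4, fell from 3545, 3727 and 3823 to 2686, 2376 and 2465, by a log2 fold change of -0.56 ± 0.07 (SE), so that the ligand and its receptor were both lower.

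Of 19 tested interleukins and colony-stimulating factors, 11 rose and 2 fell, with a median of 1.18. Of the 19, 4 lay at or below the controls in PBS. The filter took the mean of all 9 arrays, so such genes could enter the test through their hyaluronidase signal. The counts and the median therefore lean toward rises. IL6 was at 78.8, 63.8 and 66.4 in PBS and 2373, 2142 and 2196 at 6 h, a log2 fold change of 4.72 ± 0.09 (SE). IL1B, a driver of inflammation, was at 453, 432 and 372 in PBS and 5987, 6093 and 5877 at 6 h, and IL1RN, the secreted antagonist of its receptor, at 82.7, 123 and 107 in PBS and 2499.7, 2397 and 2593 at 6 h. Agonist and antagonist thus rose together, 13.8-fold and 21.1-fold. IL11 and IL24 reached 1111, 1035 and 1068 and 1327, 1242 and 1314 at 6 h, IL11 at least 16.7-fold higher and IL24 from a level above the controls on 1 PBS array. The death ligand gene TNFSF10 (TRAIL) went the other way, to 2.67-fold lower.

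The later levels of these genes differed. After 24 h of hyaluronidase CCL20 was at 641, 635 and 615, far below its 6 h level (log2 difference -4.20, limma adjusted p = 2.09e-07). IL6 and LIF were also lower at 24 h than at 6 h, by log2 differences of -1.57 and -2.87 (adjusted p = 1.47e-05 and 4.82e-05). CXCL8, IL24 and IL1B were higher still at 24 h, by 0.60, 2.78 and 1.08 (adjusted p = 0.00116, 1.46e-06 and 3.06e-05). These differences share the 6 h arrays with the comparison to PBS. Between 24 h and 6 h of hyaluronidase 33% of all genes were called, 19.7% higher and 13.3% lower at 24 h.

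The receptors were called higher in 17 of 28 cases and lower in 3. OSMR, the receptor of oncostatin M, was at 2733, 2676 and 2542 in PBS and 10317, 10627 and 10302 at 6 h, and its ligand gene OSM rose from the controls by at least 2.17-fold. IL1R1 and its partner IL1RAP were 2.46-fold and 3.87-fold higher, and TNFRSF12A, the receptor of TWEAK, 5.16-fold. Among 16 pattern recognition genes, 6 rose, including PTX3, a secreted pentraxin that binds TNFAIP6. PTX3 was at 528, 456 and 405 in PBS and 11435, 11922 and 12056 at 6 h. TLR4, a receptor for bacterial lipopolysaccharide also linked to hyaluronan fragments, was 1.85-fold higher, and TLR3 1.74-fold lower.

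PTGS2 (COX-2), the inducible enzyme of prostaglandin synthesis, was at 281, 397 and 324 in PBS and 7683, 7543 and 7154 at 6 h, 21.5-fold higher. PTGES, which makes prostaglandin E2, was 3.48-fold and its receptor gene PTGER2 3.13-fold higher. Of 16 tested members of the prostaglandin list, 4 were higher, 1 was lower and 11 did not pass the test. Among the proteins that bind AU-rich elements and degrade such mRNAs, 4 of 28 rose and 8 fell. Those shares, 14.3% and 28.6%, were near the 15% and 27.4% of all genes. ZFP36 was at 1419, 1465 and 1616 in PBS and 2308, 2898 and 2319.7 at 6 h, 1.66-fold higher, ZFP36L1 1.95-fold higher and ZFP36L2 1.84-fold lower.

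The promoters of CCL20, IL6, NFKBIA and CXCL8 are shown as examples from the chemokine, interleukin and NF-kappaB lists, each with a match to one of these motifs. Each run is the 200 bases before the RefSeq start in GRCh38.p14: chr2:227813642-227813841 (plus strand) for CCL20, chr7:22727000-22727199 (plus) for IL6, chr14:35404750-35404949 (minus) for NFKBIA and chr4:73740369-73740568 (plus) for CXCL8. Capitals mark a match to the NF-kappaB consensus in the first 3 and an AP-1 site (TGANTCA) in CXCL8. The NF-kappaB consensus was GGGRNNYYCC, with R for A or G, Y for C or T and N for any base. Only full matches were counted, here and in the shares below. The run tggaatttcc in CXCL8 differs from the consensus in its first letter and was not counted.
CCL20: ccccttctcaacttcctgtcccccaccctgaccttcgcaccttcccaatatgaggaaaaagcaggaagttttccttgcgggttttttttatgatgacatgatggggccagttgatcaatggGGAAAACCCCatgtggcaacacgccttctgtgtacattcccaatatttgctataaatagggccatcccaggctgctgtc
IL6: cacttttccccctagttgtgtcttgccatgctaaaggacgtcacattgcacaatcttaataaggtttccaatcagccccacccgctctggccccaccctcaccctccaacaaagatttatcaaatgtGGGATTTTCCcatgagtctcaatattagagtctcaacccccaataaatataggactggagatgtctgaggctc
NFKBIA: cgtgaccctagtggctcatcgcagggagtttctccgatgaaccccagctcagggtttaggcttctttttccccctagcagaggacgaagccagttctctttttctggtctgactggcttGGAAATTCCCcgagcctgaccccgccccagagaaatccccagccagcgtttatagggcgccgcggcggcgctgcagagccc
CXCL8: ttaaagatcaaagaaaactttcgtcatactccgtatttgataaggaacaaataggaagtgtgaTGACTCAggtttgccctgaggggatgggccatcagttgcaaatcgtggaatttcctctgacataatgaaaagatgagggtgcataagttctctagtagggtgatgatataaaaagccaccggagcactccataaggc
The NF-kappaB matches begin 79, 73 and 81 bases before the starts of CCL20, IL6 and NFKBIA, and the AP-1 match 137 bases before that of CXCL8. An NF-kappaB match was found in 5 of 9 chemokine promoters (55.6%), in 5 of 16 of the NF-kappaB list (31.2%), in 2 of 13 of the interleukin list (15.4%), in 8 of 26 of the genes 8-fold or more higher (30.8%) and in 12.9% of all. In genes 2-fold or more higher it was found in 13.9%. An AP-1 site was found in 11.7% of the promoters of genes 2-fold or more higher and 3.63% of those 2-fold or more lower, against 4.91% of all. The TATA box (TATAAA) was found in 13.6% of promoters of genes 2-fold or more higher, in 7.54% of those 2-fold or more lower and in 6.45% of all. The cyclic AMP response element (TGACGTCA) was found in 2.45%, 3.35% and 3.13% of the same sets.

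Growth factor genes rose in 17 of 28 tested cases and fell in 2, with a median of 0.71. Ligands of the EGF receptor were among the steepest: EREG (epiregulin) was at 16.1, 13.2 and 31.7 in PBS, at or below the controls, and 1141, 1149 and 1173 at 6 h, at least 18.0-fold higher. HBEGF, another such ligand, was at 73.1, 75.7 and 78.5 in PBS and 1831, 2179.6 and 2110.4 at 6 h. INHBA, whose product forms activin A, was at 291, 248 and 295 in PBS and 7017, 7148 and 6953 at 6 h, and FST, which binds and blocks activin, rose 9.2-fold. GDF15, a stress-induced hormone, was 23.8-fold higher, though of its other 2 probe sets 1 gave 0.62 and did not pass the test. VEGFA, FGF2 and BMP2 were 6.57-fold, 6.37-fold and 6.43-fold higher.

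Of 24 receptor tyrosine kinases 5 were higher and 6 lower (20.8% and 25%), near the 15% and 27.4% of all genes. PDGFRB was 2.21-fold and EGFR 1.82-fold higher, while FGFR2 was at 1445, 1417 and 1476 in PBS and 247, 332 and 279 at 6 h, 4.87-fold lower. Of the other 10 probe sets of FGFR2 3 were called lower and 0 higher. EGFR was called higher by 3 of its probe sets, but the mean over all of them, dim ones included, was 0.23 and did not pass the test. In the BMP and SMAD list 12 of 31 rose and 7 fell. The ID genes, targets of BMP signals, were lower: ID1 was at 23498, 22505 and 24902 in PBS and 18725, 16876 and 19462 at 6 h and ID3 at 11048, 10905 and 11648 in PBS and 3445, 2869.7 and 3407 at 6 h. Their log2 fold changes were -0.37 ± 0.07 (SE) and -1.79 ± 0.08 (SE), beside a higher BMP2 and lower SMAD1 (-0.85) and SMAD9 (-1.32).

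Genes of hyaluronan itself moved at both ends of its life. Of 24 tested members, 9 rose and 4 fell, with a median of 0.16. HAS2, the main inducible hyaluronan synthase, was at 241, 186 and 213 in PBS and 1357, 1223 and 1233 at 6 h, 5.64-fold higher. HAS3 was at 90.0, 78.3 and 65.5 in PBS and 52.2, 78.9 and 60.4 at 6 h and did not pass the test (-0.24 ± 0.26 (SE), limma adjusted p = 0.506). CEMIP, which takes part in hyaluronan breakdown, was 3.21-fold higher, TNFAIP6 (TSG-6), which links proteins to hyaluronan, 2.89-fold and the receptor gene CD44 2.11-fold.

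Enzymes that supply the sugars of hyaluronan went both ways: UGDH and UAP1 were 1.7-fold and 1.71-fold higher and GFPT1, the entry step of the hexosamine path, 1.28-fold lower. HMMR, a hyaluronan-binding protein of the mitotic spindle, changed by -1.33 ± 0.09 (SE) and moved with the spindle genes below. In the list of chondroitin synthesis and cell-surface proteoglycans 14 of 34 rose and 6 fell. SDC4, a syndecan of focal adhesions, was at 1222, 1095 and 1010.1 in PBS and 6634, 6503 and 5929.6 at 6 h. The sulfotransferase genes CHST15, CHST11 and CHST3 were 4.19-fold, 2.94-fold and 2.79-fold higher, and TGFBR3 (betaglycan) was 2.06-fold lower.

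Proteases and their inhibitors rose side by side. Of 28 tested metalloproteinases and inhibitors, 11 were higher and 3 lower. MMP3 (stromelysin) was at 563, 410.1 and 423 in PBS and 7949, 8419 and 8231 at 6 h, and MMP1 (collagenase) rose from the controls to 212, 214 and 206, at least 3.49-fold. TIMP3, a matrix-bound inhibitor, was 4.07-fold and TIMP1 1.85-fold higher. In plasminogen activation and clotting 7 of 12 rose and 0 fell. PLAUR, the urokinase receptor, rose 5.98-fold, the clotting initiator F3 (tissue factor) 3.84-fold and the protease inhibitor gene TFPI2 8.59-fold. With PLAUR at 582, 540.2 and 540.3 in PBS and 3483, 3170.2 and 3527 at 6 h, its arrays did not overlap.

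Collagens changed less. Of 31 tested collagen genes and crosslinking enzymes 11 rose and 4 fell, with a median of 0.09. COL6A3 was 2.3-fold and COL5A3 2.06-fold higher, and COL1A2, a chain of the main fibrillar collagen, 1.39-fold lower. Among 31 matricellular and adhesive glycoproteins, 9 rose and 5 fell. CCN1 and CCN2, targets of YAP and serum response factor, were 3.46-fold and 2.22-fold higher, tenascin C (TNC) 3.3-fold higher and THBS2 1.87-fold lower.

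Integrins, the cell's matrix receptors, rose in 8 of 17 cases. ITGA2, which pairs with ITGB1 to bind collagen, was at 105, 84.5 and 62.3 in PBS and 799, 803 and 912 at 6 h, with 2 of the 3 PBS arrays above their control level. ITGB3, part of the vitronectin receptor, was 7.5-fold and ITGA3 2.27-fold higher. In the actin and serum response factor list 11 of 26 rose and 2 fell, led by RND3, which loosens actin fibres, and FHL2, at 4.0-fold and 3.7-fold higher.

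TXNIP, which restrains glucose uptake, was at 10597, 10871 and 10929.6 in PBS and 8547, 8579 and 8193 at 6 h and called lower (-0.36 ± 0.06 (SE), limma adjusted p = 0.00169). Of its paralogues, ARRDC4 was at 0.01 ± 0.05 (SE), not past the test, and ARRDC2 was 1.93-fold higher. Of the whole list, 3 of 14 rose and 3 fell (21.4% each), near the 15% and 27.4% of all genes, and 8 did not pass the test. In glucose uptake and glycolysis 7 of 29 rose and 3 fell, with a median of -0.03. The transporter gene SLC2A3 (GLUT3) was at 376, 354 and 285 in PBS and 2323, 2469.6 and 2450.4 at 6 h, 6.9-fold higher.

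PFKFB3 and PFKFB4, which make the activator of phosphofructokinase, were 2.77-fold and 3.11-fold higher, and HK1, an entry enzyme of glycolysis, 1.61-fold. The muscle-type phosphofructokinase gene PFKM was 1.66-fold lower. SLC2A1 (GLUT1), at 0.35 ± 0.10 (SE), was called higher (limma adjusted p = 0.0243). Leaving out PBS replicate 2 or 3, or replicate 1 or 2 of 6 h, ended that call (adjusted p 0.0693, 0.0682, 0.0725 and 0.0567), as did averaging over all its probe sets (0.315). HK2 did not pass at 0.44 ± 0.16 (SE), but passed as higher without PBS replicate 2 or 3 (adjusted p 0.0288 and 0.0320), with an offset of 64, the 50th percentile filter or a trended robust variance (0.0192 to 0.0467) and with the mean of its probe sets (log2 fold change 0.79). LDHA, the lactate dehydrogenase at the end of the pathway, was at 23629, 25123 and 26056 in PBS and 25663, 26252 and 25857 at 6 h and did not pass.

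Pyruvate entry and the citric acid cycle went down as a group, with 16 of 30 members lower and 1 higher, and a median of -0.25. PDK4, which blocks pyruvate entry and is induced in fasting, was at 579, 599.9 and 596 in PBS and 107, 114 and 93.9 at 6 h, 5.04-fold lower, though its other 2 probe sets gave -0.33 and -0.74 and did not pass the test. IDH1, a cytosolic enzyme that makes NADPH, was 2.23-fold lower. PDP1, the phosphatase that activates pyruvate dehydrogenase, was 2.07-fold higher. Of 32 subunit and assembly genes of complex I of the respiratory chain, 13 were lower (40.6%, against 27.4% of all genes) and 0 higher. Their median was -0.16 against -0.08 for all genes. The count of lower genes ran from 8 to 26 under other settings.

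Of 31 ATF4 targets and genes of amino acid supply, 13 rose and 9 fell. DDIT4, which restrains mTORC1, was 4.25-fold, the cystine transporter gene SLC7A11 3.25-fold and TRIB3 2.55-fold higher. The serine synthesis enzymes PSAT1 and PHGDH were 1.78-fold and 1.64-fold lower, and CTH, which makes cysteine, 2.21-fold lower. In the hypoxia list 11 of 24 rose and 7 fell: ADM (adrenomedullin) was 2.49-fold higher and HIF1A 1.77-fold.

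Sterol and fatty acid synthesis fell in 15 of 28 cases and rose in 3, with a median of -0.32. HMGCS1, an early step of cholesterol synthesis, was 1.54-fold lower, LSS, a later one, 1.86-fold and ACACB, an acetyl-CoA carboxylase, 2.05-fold. ELOVL6, which lengthens fatty acids, was 1.97-fold higher. MYLIP, which degrades the LDL receptor, was 2.96-fold lower.

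Metallothioneins, small proteins that bind zinc and copper, rose together. Of 15 tested members of the zinc list 11 were higher and 2 lower, with a median of 0.65. MT1E was at 654, 618 and 622 in PBS and 1959, 2307 and 4649.5 at 6 h and MT2A at 7056, 7292 and 7998 in PBS and 25447, 23938 and 26343 at 6 h. They were 4.29-fold and 3.39-fold higher, MT1X 3.17-fold and the zinc exporter gene SLC30A1 2.18-fold. Probes for near-identical metallothionein genes can take up each other's RNA, so the members are not separate measurements. The metal response element core (TGCNCNC) was found in 7 of 10 promoters of this list (70.0%) and in 62.9% of all.

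Other stress lists were mixed. Antioxidant and NRF2 targets gave 6 higher and 7 lower of 24, with SLC7A11, given above, the largest rise, and SOD2, the mitochondrial superoxide dismutase and an NF-kappaB target, 2.0-fold higher. Heat shock and endoplasmic reticulum chaperones gave 5 higher and 7 lower of 28 (17.9% and 25%), near the shares of all genes. HSPA5 (BiP), at 21311, 22342 and 23844 in PBS and 23503, 24362 and 23725 at 6 h, did not pass the test. Of 25 p53 targets 7 rose and 11 fell. CDKN1A (p21) was at 1902, 1991 and 1948 in PBS and 7133, 6456 and 6278 at 6 h, 3.38-fold higher, and GADD45A 3.68-fold, while CCNG2, DDB2 and RPRM were 2.41-fold, 2.13-fold and 6.64-fold lower.

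Of 17 tested members of the BCL2 family, which holds both survival and death-promoting genes, 9 rose and 3 fell. The survival genes BCL2A1 (at least 10.1-fold), MCL1 (3.67-fold) and BCL2L1 (2.67-fold) were higher, and the death-promoting BMF and BCL2L11 (BIM) were 3.79-fold and 1.81-fold lower. The calls did not follow role. PMAIP1 (NOXA), also death-promoting, was 3.74-fold higher, and the death-promoting BID, BOK and BAK1 were higher at log2 fold changes of 0.56, 0.42 and 0.27. The survival gene BCL2 was lower at -0.29. The call of BCL2 was lost with quantile normalization and with the mean of its probe sets, and that of BAK1 without the filter, with equal array medians, with the 6 arrays alone and when replicate 1 or 3 of PBS or replicate 2 or 3 of 6 h was left out.

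Genes that build ribosomes rose while genes of the ribosome itself were not called. Of 44 tested genes of ribosome biogenesis and RNA polymerase I, 35 rose and 0 fell, with a median of 0.49. The list includes MYC, a regulator and not a part of ribosome assembly, which had its largest change of 1.35. DDX21, an RNA helicase of the nucleolus, was at 9541, 9617 and 9590.4 in PBS and 19346, 20199.6 and 19804 at 6 h, and NIP7 at 1374, 1286 and 1478 in PBS and 2613, 2394 and 3061 at 6 h. These were 2.06-fold and 1.93-fold higher, with no overlap. MYC, a factor known to drive such genes, was at 3082, 3119 and 2989.6 in PBS and 7918, 7866 and 7682 at 6 h, 2.55-fold higher. Its part in these rises was not tested. Its antagonist gene MXD3 was 5.35-fold lower. Another antagonist gene, MNT, was called higher (0.45, limma adjusted p = 0.0332), a call lost under several other settings. In the MYC, MAX and MXD list 3 of 14 rose and 5 fell (21.4% and 35.7%, against 15% and 27.4% of all genes), with a median of 0.05.

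The 36 cytosolic ribosomal protein genes tested had log2 fold changes between -0.05 and 0.09. None of them was called by limma in the main fit, and 0 had an unadjusted p under 0.05. Their PBS means lay between 13300 and 43073, the top of the signal range, where probes can saturate and small changes are hard to see. RPS24 was called under 1 of the other settings. Of 48 translation initiation factors 15 rose and 5 fell. Mitochondrial ribosomal proteins went the other way, with 35 of 75 lower and 4 higher.

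UTP4, a factor of small-subunit assembly, is shown for its E-box (CACGTG, in capitals), the sequence bound by MYC and MAX. It had the largest rise among the members considered that hold an E-box in the 200 bases before the start. MYC and the other genes on the chromosome of MYC were left out of this choice. The window is chr16:69132449-69132648 on the plus strand of GRCh38.p14. UTP4 itself was 1.38-fold higher.
UTP4: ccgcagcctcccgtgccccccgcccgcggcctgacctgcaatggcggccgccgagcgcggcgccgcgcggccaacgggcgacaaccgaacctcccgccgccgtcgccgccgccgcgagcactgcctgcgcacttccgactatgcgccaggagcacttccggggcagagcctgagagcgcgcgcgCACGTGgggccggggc
An E-box was found in 14 of 38 promoters of the biogenesis list (36.8%), in 9.90% of all, in 7.88% of those of genes 2-fold or more higher and in 8.94% of those 2-fold or more lower.

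Mitotic genes were lower. Of 31 mitotic kinases, cyclins and ubiquitin ligase genes 23 fell and 1 rose, with a median of -0.59. Of 38 kinesin and spindle genes 34 fell and 0 rose, with a median of -0.72. CDC20, which starts the exit from mitosis, was at 6252, 6576 and 7222 in PBS and 2737, 2539 and 2396 at 6 h. CENPE, a kinesin of the kinetochore, was at 2235, 2056 and 2239 in PBS and 353, 716 and 421 at 6 h, and PLK1, a central mitotic kinase, at 553, 529 and 488 in PBS and 289, 226 and 259.6 at 6 h. Their log2 fold changes were -1.38 ± 0.10 (SE), -2.16 ± 0.35 (SE) and -0.98 ± 0.12 (SE), and no arrays overlapped.

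The exception among the kinases and cyclins was CDC25A, a phosphatase of the step from G1 to S phase, at 1.54-fold higher. Centrosomal CEP genes were lower in 22 of 34 cases and higher in 0. Genes of DNA replication were split, with 11 of 50 higher and 13 lower and none 2-fold. These shares, 22% and 26%, compare with 15% and 27.4% of all genes. CCNE1, cyclin E1, was 1.55-fold higher, and E2F8 1.57-fold lower. In G1, CCND1 (cyclin D1) was at 68.4, 59.4 and 40.7 in PBS and 499, 439 and 439.8 at 6 h, 6.67-fold higher, and CDK6 2.17-fold. The inhibitors went apart, with CDKN1A higher as above and CDKN1B (p27), CDKN2D (p19) and CDKN1C (p57) 1.84-fold, 2.32-fold and 8.18-fold lower.

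After 24 h of hyaluronidase CDC20 was at 3553, 4327 and 3652, CENPE at 1691, 1422 and 711 and PLK1 at 359.6, 468 and 417. The log2 differences from 6 h were 0.58, 1.31 and 0.65 (limma adjusted p = 0.00265, 0.0226 and 0.00404).

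**Figure D3:**
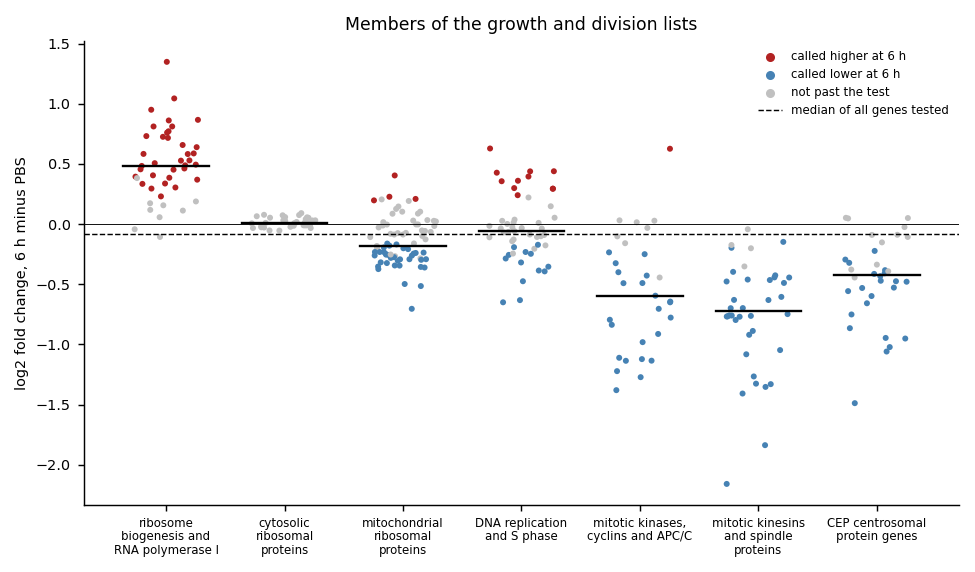
Log2 fold change (6 h hyaluronidase minus 24 h PBS) of each tested member of 7 lists, coloured by call, with a bar at the list's median and a dashed line at the median of all genes tested (-0.08). Ribosome biogenesis lies above 0, cytosolic ribosomal proteins close to 0 and the mitotic and centrosomal lists below 0.

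CDC20 and PLK1 are shown for the sequences known from promoters of mitotic genes, the cell cycle homology region (CHR, TTTGAA) and the CCAAT box, both in capitals. The windows are chr1:43358781-43358980 and chr16:23678689-23678888, both on the plus strand of GRCh38.p14.
CDC20: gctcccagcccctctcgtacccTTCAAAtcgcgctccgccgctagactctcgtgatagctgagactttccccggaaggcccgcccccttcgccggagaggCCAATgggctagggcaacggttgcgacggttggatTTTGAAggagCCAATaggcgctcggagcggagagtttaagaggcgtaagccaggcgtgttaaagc
PLK1: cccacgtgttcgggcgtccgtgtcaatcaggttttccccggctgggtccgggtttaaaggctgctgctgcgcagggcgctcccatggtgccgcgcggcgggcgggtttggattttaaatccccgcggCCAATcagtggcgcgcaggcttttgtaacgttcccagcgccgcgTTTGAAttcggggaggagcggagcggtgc
In CDC20 the CHR matches, on either strand, begin 178 and 65 bases before the start and the CCAAT boxes 100 and 55. In PLK1 the CHR begins 29 and the CCAAT box 73 bases before it. A CHR was found in 35 of 57 promoters of both mitotic lists (61.4%) against 10.3% of all, and a CCAAT box in 41 of 57 (71.9%) against 36.5% of all. Among all genes 2-fold or more lower, a CHR was found in 14% and a CCAAT box in 41.9%. Among genes 2-fold or more higher, a CHR was found in 16.3%.

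Fat cell transcription factors were lower in 16 of 24 cases and higher in 5, with a median of -0.57. Besides CEBPA, MN1 was at 1209, 1228 and 1289 in PBS and 142, 183 and 168 at 6 h and PPARGC1A, a coactivator of mitochondrial and fat cell genes, at 1706, 1981 and 2024 in PBS and 326, 303 and 375 at 6 h. RXRA, the partner of PPARG, was 2.36-fold lower and KLF15 3.09-fold. PPARG itself was at 5506, 5699 and 5634 in PBS and 4437, 3893 and 3936 at 6 h, a smaller fall of -0.46 ± 0.06 (SE). CEBPD, which acts early in fat cell formation and in inflammation, was 2.16-fold higher and PPARD 2.22-fold, while CEBPB, at 26095, 25861 and 28349 in PBS and 28586, 28908 and 27440.0 at 6 h, did not pass the test.

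Adipocyte products fell in 15 of 31 cases and rose in 4. LIPE, hormone-sensitive lipase, was at 1284, 1265 and 1082 in PBS and 214, 253 and 306 at 6 h, 4.51-fold lower. ADIPOQ (adiponectin) was 2.43-fold lower, the lipid droplet coat gene PLIN1 2.26-fold and LPIN1, an enzyme of triglyceride synthesis, 2.49-fold. PLIN2, the coat protein found in most cell types, was 3.1-fold higher by its brightest probe set, and its log2 fold change with the mean of its probe sets was 0.68 and not past the test. FABP4 and LPL, at 32993, 32886 and 34007 in PBS and 32344, 32529 and 30919 at 6 h and 7415, 7687 and 7899 in PBS and 7209.8, 7055 and 7265 at 6 h, did not pass the test.

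Insulin and FOXO genes were mixed, with 8 of 26 higher (30.8%) and 7 lower (26.9%), against 15% and 27.4% of all genes. KLHL24, TSC22D3 (GILZ) and FBXO32 were 3.3-fold, 2.86-fold and 2.46-fold lower. IRS2 was 1.58-fold and TRIB1 2.65-fold higher.

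Clock genes were listed because the groups differ in time of harvest. Of 20 tested clock genes 8 were higher and 10 lower, so that 18 of 20 were called against 42.4% of all genes. DBP, an output gene of the clock, was at 207, 194 and 247 in PBS and 19.6, 43.6 and 18.0 at 6 h, with 1 of the 3 arrays at 6 h above its control level. PER3 was at 1705, 1591 and 1454 in PBS and 686, 789.5 and 662 at 6 h, 2.2-fold lower, and PER2 at 156, 149.7 and 184 in PBS and 259, 376 and 334 at 6 h, 1.88-fold higher. CIART was 2.31-fold lower, BMAL1 1.94-fold higher and BHLHE40, also a first-wave gene, 2.76-fold higher.

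The 24 h hyaluronidase arrays, harvested at the same time as PBS, give a second set of values for these genes. CIART was at 531, 569 and 609 in PBS, 233, 237 and 239 at 6 h and 517, 421 and 509 at 24 h of hyaluronidase, and PER2 at 152, 196 and 183 after 24 h, both nearer PBS than the 6 h arrays. PER3 was at 654, 623 and 717, nearer the 6 h arrays. The log2 differences between 24 h and 6 h were 0.97 for CIART, -0.81 for PER2 and -0.10 for PER3 (limma adjusted p = 0.000129, 0.00451 and 0.479). The E-box, which the clock factors also bind, was found in 4 of 19 clock gene promoters (21.1%) and the D-box (TTANGTAA), bound by DBP and its relatives, in 2 of them (10.5%), against 9.90% and 1.31% of all.

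**Figure D4:**
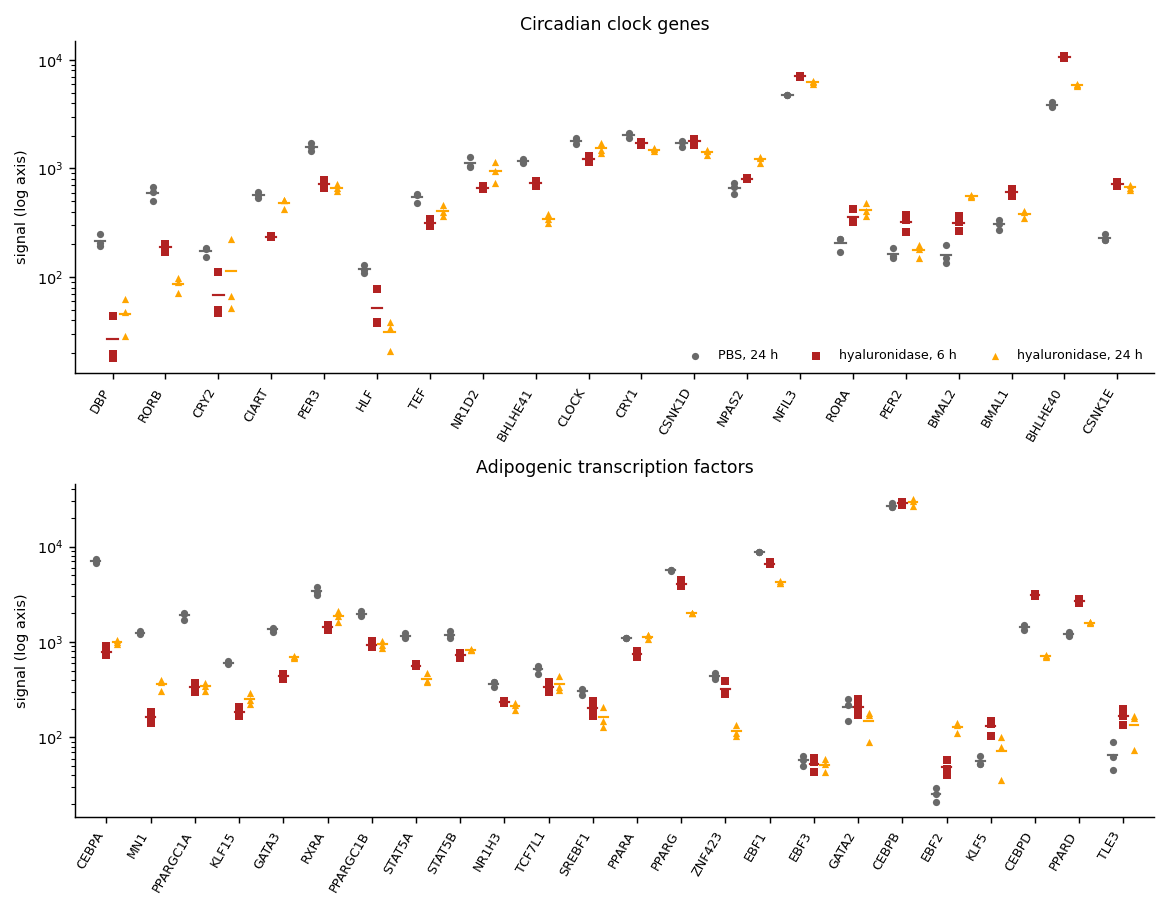
Signal on a log axis of each tested clock gene and adipogenic transcription factor in the 3 arrays of PBS at 24 h (grey circles), hyaluronidase at 6 h (red squares) and hyaluronidase at 24 h (orange triangles), ordered by the fold change at 6 h, with a bar at each group's mean. For CIART and PER2 the 24 h arrays of both treatments lie closer to each other than to the 6 h arrays, and for CEBPA both hyaluronidase groups lie below PBS.

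Developmental signals changed in both directions. In Notch and Wnt 13 of 38 rose and 8 fell. WNT5A was 3.6-fold higher, while AXIN2, a feedback target of beta-catenin, was at 343, 386 and 392 in PBS and 86.4, 111 and 94.1 at 6 h, 3.44-fold lower, and FZD2, a Wnt receptor, 3.28-fold lower. Among semaphorins, ephrins, netrins and slits 8 of 33 rose and 7 fell. SEMA7A, a membrane-anchored semaphorin, was 4.18-fold higher and SEMA6D 6.52-fold lower by its brightest probe set. Of the other 4 SEMA6D probe sets 1 was called lower and none higher.

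Interferon-stimulated genes gave 7 higher and 10 lower of 36 (19.4% and 27.8%), near the 15% and 27.4% of all genes. OASL, IRF1 and GBP1 were 3.57-fold, 2.17-fold and 2.09-fold higher, and IFIT1, at 2169.5, 2385 and 1771 in PBS and 922, 499 and 648 at 6 h, was 3.08-fold lower. Of 13 genes of the long arm of chromosome 12, from a region often amplified in liposarcoma, 6 rose and 1 fell. HMGA2, a chromatin protein of that region, was at 43.6, 49.2 and 60.3 in PBS and 749.7, 732 and 692 at 6 h, 11.1-fold higher. Of its other 8 probe sets, all dim, 2 were called higher, and the mean of its probe sets gave 0.82. MDM2 and CDK4, at 944, 920.4 and 1093 in PBS and 995, 968 and 1185 at 6 h and 7672, 7987 and 7699 in PBS and 7925, 7359.6 and 7516 at 6 h, did not pass the test, though MDM2 passed as higher with the mean of its probe sets (0.27, limma adjusted p = 0.0248).

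Single genes outside these groups were also among the largest changes. TMEM158, a membrane protein induced by RAS, was at 670.0, 581 and 595 in PBS and 8994, 9397 and 8828 at 6 h. GCH1, which makes a cofactor of nitric oxide synthase, was 11.2-fold higher, and CD274 (PD-L1), an inhibitor of T cells, at least 8.54-fold. SLC40A1 (ferroportin), the iron exporter, was 6.82-fold lower, with 2 of 3 arrays at 6 h above their control level. ADRA2A, a receptor that restrains lipolysis, was 5.75-fold, the adhesion gene IGSF11 6.08-fold and the histone gene H2AC6 5.86-fold lower.

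**Figure D5:**
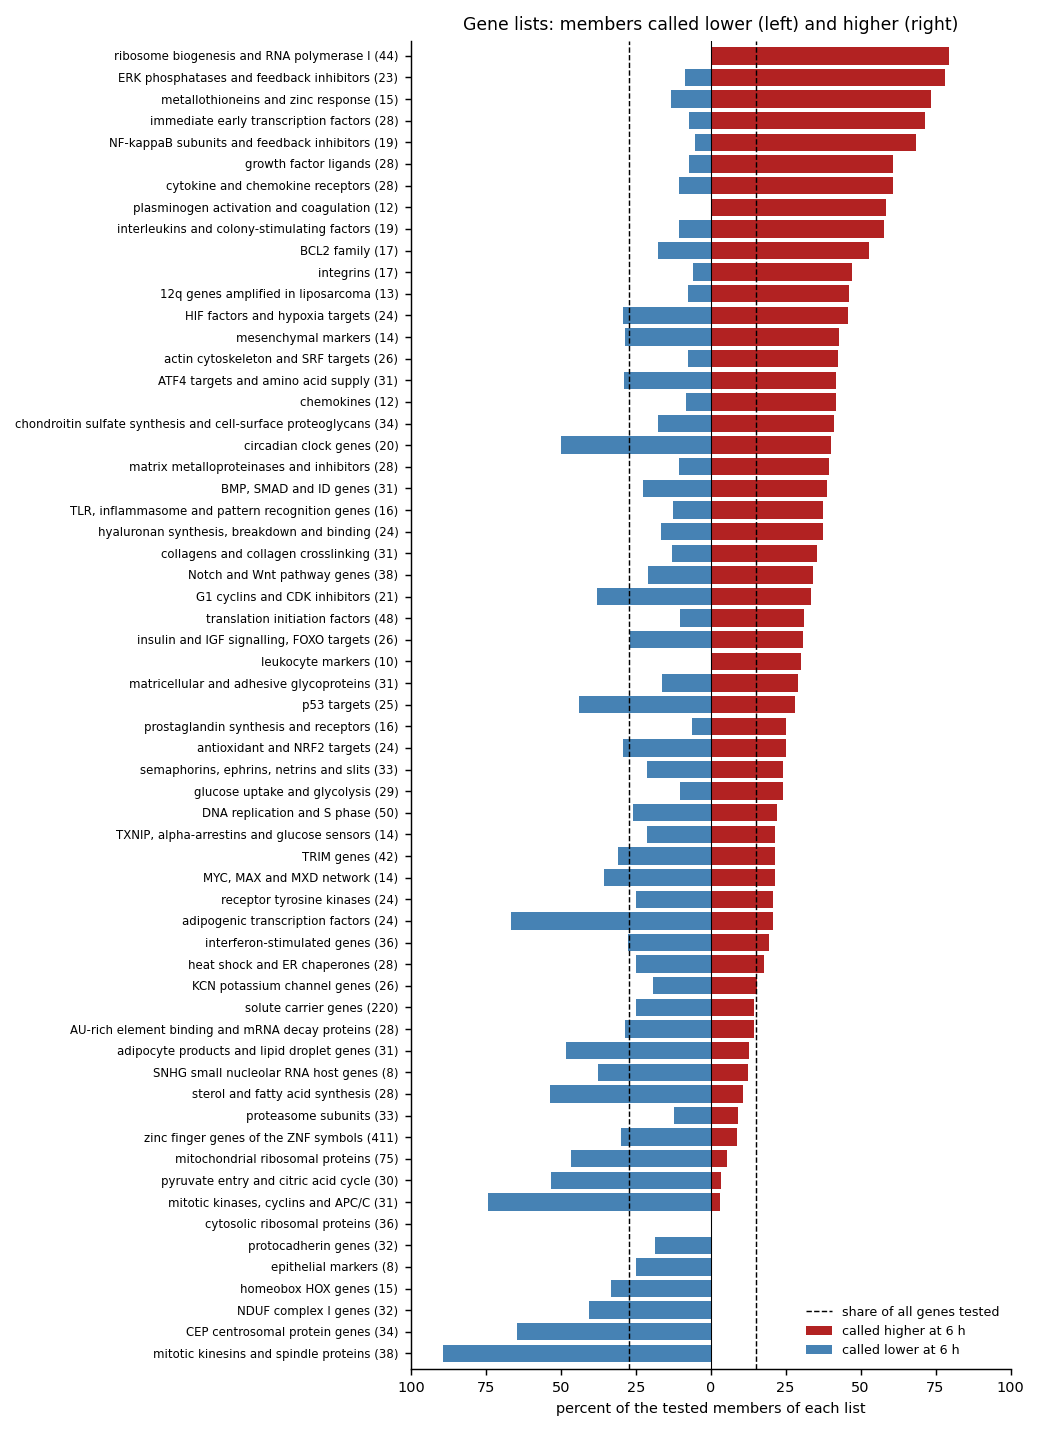
Percent of the tested members called higher (red, right) and lower (blue, left) at 6 h of hyaluronidase against 24 h PBS, for each list with at least 8 tested members (number in brackets), with dashed lines at the shares of all genes tested (15% higher and 27.4% lower). Ribosome biogenesis and the inhibitors of ERK signalling reach farthest to the right, and mitotic kinesins and spindle proteins farthest to the left.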

How the data were processed

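Signals of 9 Affymetrix U133 Plus 2.0 arrays were taken from the deposited value table, which holds a linear intensity for each probe set. The authors derived these intensities from CHP files, per the series design text. How probes were summarised, and on which genome build, is not given in the sources used here. With 2% trimmed at each end, the array means were 500.07 to 500.075, so the arrays had been scaled before deposit, and the medians were 55.8 to 61.3. Precision is limited by the number of arrays.

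Of 54675 probe sets, 62 were controls, and 41091 had 1 gene symbol in the platform annotation, 1801 several and 11721 none there. Only those with 1 symbol were used for genes, and 41037 of them had a gene ID in a RefSeq table of GRCh38.p14. For each of 19775 genes the brightest probe set (mean over the 9 arrays) was used, as log2(signal + 16). A filter at the 30th percentile of these means (a signal of 32.2) left 13842 genes for the test. A gene dim in PBS could thus enter the test through its hyaluronidase arrays, which leans the counts of lists with dim members toward rises.

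The lmFit and eBayes functions of limma 3.58.1 (R 4.3.3) were run on all 9 arrays with 1 mean per group, and p-values were adjusted by the Benjamini-Hochberg method over all genes tested. The procedure was also run on simulated data with normal noise and few changed genes. These settings differ from the real data, so that run checks the code and not the results given here. The control level of an array is its brightest of 27 Bacillus subtilis control probe sets, between 34.2 and 65.0.

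The comparison, the 62 gene lists and the rule for names were chosen with earlier results of these data known. Some lists share members. Genes named were the 25 largest rises and 25 largest falls past the test with no overlap between the groups' arrays and whose higher group lay above the controls, up to 8 members per list by size plus preset key members, the 10 brightest called genes in PBS, and GAPDH and ACTB. TNFSF10, BAK1, SMAD1, GFPT1, PSAT1, PHGDH, CDC25A, UTP4 and RPS24 were named after their values were seen. RefSeq promoters, from 250 bases before to 50 after the start, were found for 11167 tested genes and searched for 10 motifs on both strands. The alternatives were other offsets (1 and 64), filters, normalizations, variance models, sample sets, a replicate block, each array left out and other probe set choices.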

Additional observations from a re-analysis of the deposited data

Results flagged for a closer look

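Probe sets without a gene symbol in the platform annotation took no part in the gene tests. Of 4695 such probe sets above the filter, 113 (2.41%) were called 2-fold or more higher at 6 h of hyaluronidase with arrays that did not overlap, and 101 (2.15%) were lower by the same rule (limma, adjusted over all probe sets), below the 3.38% and 3.22% of all genes tested that were called at 2-fold or more. The signal behind the largest of these rises was 36.2 ± 5.62 in PBS and 1190 ± 68.5 at 6 h (SD, n = 3 each), with a log2 fold change of 4.53. The next was at 832 ± 83.8 and 18390 ± 1210. The largest falls among them had log2 fold changes of -2.64 and -2.43. Nothing else was marked, since groups of 3 arrays are too small for a test of outlying arrays.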

How the results depend on the processing

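The counts of genes called, called higher and called lower, and of genes 2-fold or more higher, stayed within 1.5 times under the 16 other settings. Genes called and 2-fold or more lower numbered 446, against 257 with log2(signal + 64), 281 with the 50th percentile filter and 288 with the mean of probe sets. An offset of 64 shrinks the fold of dim genes, and the stricter filter tests fewer of them, by construction. With 1 array left out, 4903 to 5161 genes were called, 1780 to 1858 higher and 3079 to 3307 lower, with 464 to 486 and 416 to 473 at 2-fold or more. No scaling moved the median of all genes by over 0.1: it was -0.06 with quantile normalization and -0.08 with equal array medians.

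The titles number replicates 1 to 3 in each group. Deviations of equally numbered arrays from their group means correlated at -0.049 to 0.037. The labels do not say what the numbers stand for. Array noise also enters these correlations, so they cannot tell whether equal numbers share a culture or day. With the replicate block 5447 genes were called, 1929 higher and 3518 lower, 469 and 439 at 2-fold or more, and 22 of 522 named genes lost the call.

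Of the 522 named genes 93 changed their call under at least 1 setting. With the mean of probe sets XBP1 turned from 0.27 to -0.22 (limma adjusted p = 0.530) and SCD from -0.20 to 0.21 (0.143), and the cause was not tested. Without the 2-fold limit the share of promoters with an AP-1 site among genes called higher was 6.80% and with a TATA box 7.51%. Signals near the control level limit what can be seen: 121 genes called higher lay at or below it in PBS.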

Other observations

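Gene families picked by symbol alone were counted beside the shares of all genes, 15% higher and 27.4% lower. Of 411 tested zinc finger genes with ZNF symbols, most of them thought to repress transcription, 123 fell (29.9%) and 36 rose (8.76%), with a median log2 fold change of -0.14 against -0.08 for all genes. Solute carriers gave 32 higher and 55 lower of 220 (14.5% and 25%), near the shares of all genes, and proteasome subunits 3 higher and 4 lower of 33 (9.09% and 12.1%). Of 32 protocadherins 6 fell (18.8%, below the share of all genes) and 0 rose, a count that ran from 2 to 6 under other settings. Of 15 HOX genes 5 fell (33.3%) and 0 rose (2 to 5 under other settings), led by HOXC13 at 129, 112 and 125 in PBS and 17.5, 56.3 and 34.2 at 6 h, with 2 of the 3 arrays at 6 h above their control level.

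Potassium channel genes of the KCN symbols gave 4 higher and 5 lower of 26 tested (15.4% and 19.2%). KCNJ2, an inward rectifier that sets the resting potential, was at 1030.1, 1143 and 979 in PBS and 226, 263 and 275 at 6 h, 3.95-fold lower, and KCNJ15, of the same family, was 3.6-fold higher. TRIM genes gave 9 higher and 13 lower of 42 (21.4% and 31.0%), near the 15% and 27.4% of all genes. SNHG host genes of small nucleolar RNAs gave 1 higher and 3 lower of 8 (12.5% and 37.5%). SNHG17 was at 612, 485 and 509.8 in PBS and 1089, 950.4 and 1000.1 at 6 h, 1.87-fold higher.

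Among the genes with the highest signal in PBS that were called, changes were small. CYCS, cytochrome c, was at 32365, 34158 and 34217 in PBS and 28818, 30877 and 29325 at 6 h (-0.18 ± 0.05 (SE)). Its call was lost without the filter (limma adjusted p = 0.0595) and when replicate 2 or 3 of PBS or replicate 1 or 3 of 6 h was left out (0.0675 to 0.0744). The securin gene PTTG1 was at 23351, 23813 and 25124 in PBS and 19516, 19239 and 18926 at 6 h (-0.32 ± 0.05 (SE)). ANXA1, an annexin with anti-inflammatory action, rose by 0.25 ± 0.06 (SE), a call lost without PBS replicate 1 (limma adjusted p = 0.0508), and the chromatin protein gene HMGN3 changed by -0.48 ± 0.05 (SE).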
